A study of Mus musculus with 2 samples.

Results

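The Meis, Pbx and Pknox genes encode homeodomain transcription factors of the TALE class, which bind DNA together with Hox proteins. Described here are Meis1, Meis2, Meis3, Pbx2, Pbx3, Pbx4, Pknox1 and Pknox2, 8 of 18193 genes named on the array, chosen as every probe set whose only gene symbol in the platform annotation is 1 of these names. The rule found 20 probe sets, and no probe set with several symbols named any of the genes. The study hybridised total RNA of mouse embryonic fibroblasts, cells that grow out of dissociated embryos, to Affymetrix arrays, with 1 array for each genotype. One culture was wild type. The other, called Phc2 L307R here, was homozygous (Phc2 L307R/L307R) for a missense change in Phc2, a subunit of Polycomb repressive complex 1, which keeps developmental genes silent. Both were C57BL/6 cells of embryonic day 12.5 at passage 1, grown in serum-containing medium on gelatin-coated dishes. The labels do not say how many embryos went into a culture. Phc2 RNA had log2 ratios of 0.36 and -0.02 at its probe sets, which checks nothing about the labels, since a missense change need not alter it. The ratio of 3' to 5' Gapdh signal, a measure of RNA integrity, was 0.791 for wild type and 0.721 for Phc2 L307R. With 1 array per genotype no value has a replicate, no p-value was computed, and the number of arrays limits the precision. A lower signal from a culture cannot tell fewer cells that express a gene from less RNA per cell.

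Hox proteins recognise short and similar DNA sites on their own, and they gain length and selectivity by binding as complexes with Pbx proteins, to which a Meis or Pknox protein can add. Meis and Pknox proteins bind Pbx through a conserved part near their amino end and help to bring it into the nucleus. In the limb, Meis1 and Meis2 mark the part nearest the trunk, and retinoic acid, the vitamin A derivative, promotes their expression there. Hox genes are the classical targets of Polycomb repression, and Meis genes also lie under Polycomb control in several embryonic cell types. The comparison asks how the RNA of these cofactors differs between cells with normal and with altered Phc2.

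Promoter sequences from RefSeq (GRCm38.p6; 250 bases before to 50 bases after the annotated start) were matched for 5 of the genes, Meis1, Meis2, Meis3, Pbx2 and Pbx4. The promoters of Meis2 and Meis3 are shown because these genes had the lowest and the highest log2 ratio between the cultures, and because Polycomb complexes are known to occupy CpG-rich promoters. Capitals mark each CG dinucleotide. The Meis2 window is chr2:116064570-116064869 on the minus strand, and the Meis3 window is chr7:16175145-16175444 on the plus strand.
Meis2: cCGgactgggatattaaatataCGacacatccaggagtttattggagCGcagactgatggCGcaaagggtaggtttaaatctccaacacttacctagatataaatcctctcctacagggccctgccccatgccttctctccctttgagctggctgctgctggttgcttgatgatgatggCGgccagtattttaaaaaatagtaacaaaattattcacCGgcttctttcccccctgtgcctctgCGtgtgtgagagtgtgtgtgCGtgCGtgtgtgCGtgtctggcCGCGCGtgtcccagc
Meis3: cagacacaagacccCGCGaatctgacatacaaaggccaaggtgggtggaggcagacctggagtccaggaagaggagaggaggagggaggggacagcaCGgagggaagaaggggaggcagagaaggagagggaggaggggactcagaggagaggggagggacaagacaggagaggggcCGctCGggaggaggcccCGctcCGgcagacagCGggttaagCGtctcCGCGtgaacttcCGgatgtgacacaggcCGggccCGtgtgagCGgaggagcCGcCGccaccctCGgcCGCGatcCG
The Meis2 promoter held 13 CG dinucleotides and the Meis3 promoter 21. The others held 15 (Meis1), 19 (Pbx4) and 29 (Pbx2), against a median of 7 over 32851 promoters, of which 37.9% held at least 13. The letters TGACAG, the half-site of Meis and Pknox proteins, were searched on both strands and occurred in 0 of the 5 windows and in 19.2% of all promoters. The letters TGATTNAT, a Pbx and Hox site, likewise occurred in 0 of the 5 and in 3.22% of all. These counts say only that the letters are not in these windows, and binding of Phc2 or of the cofactors was not measured.

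Of the 8 genes, 7 were measured, meaning that the brightest probe set had a signal above the floor on at least 1 array. The floor was 94.8, the higher of the median signals of the arrays, in the linear intensity units of the deposited table. None of the 7 differed 2-fold between the cultures at its brightest probe set, against 1.11% of 11408 measured genes. At 1.5-fold the count was 1, Meis2, lower in Phc2 L307R, against 7.44% of all measured genes, 3.25% in the lower direction. Log2 ratios, Phc2 L307R over wild type, ran from -0.95 for Meis2 to 0.58 for Meis3, with 4 genes above 0 and 3 below, against 59.1% of all measured genes above 0. Their median was 0.10, and that of all measured genes was 0.06.

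**Figure D1:**
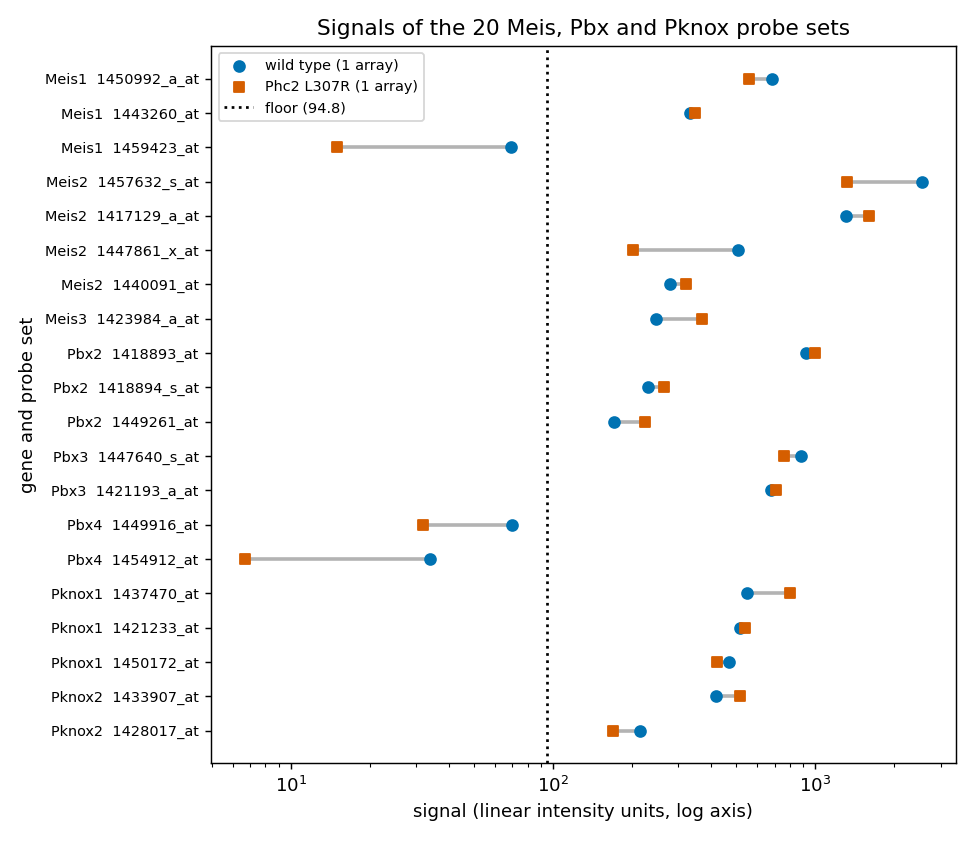
Signal (linear intensity units, log axis) of each of the 20 probe sets on the wild-type array (circles) and the Phc2 L307R array (squares), 1 array each, with the floor of 94.8 as a dotted line. A pair of Meis2 probe sets has the widest separation among those above the floor, and the others of this gene lie slightly the other way.

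**Figure D2:**
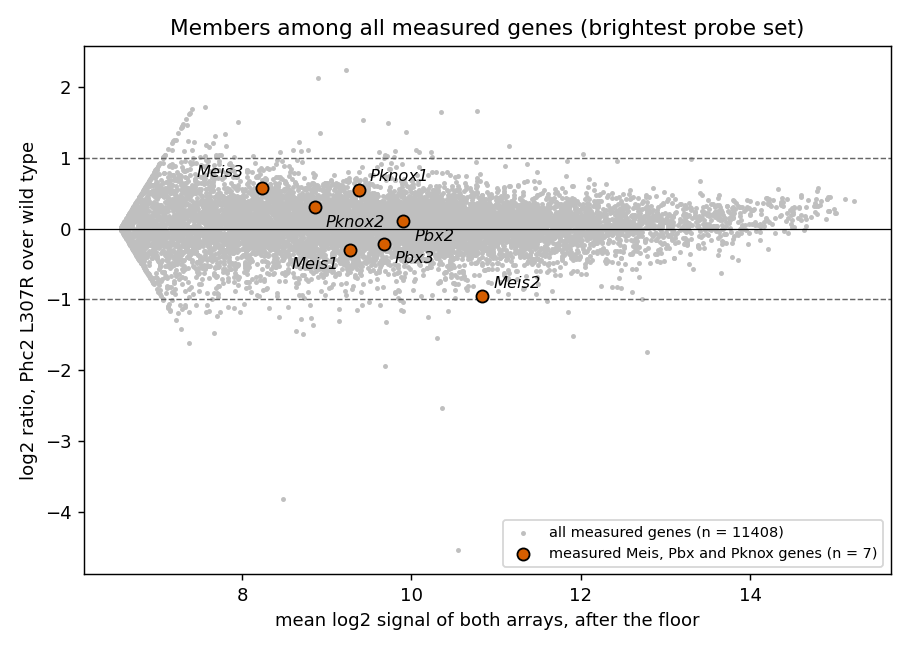
Log2 ratio, Phc2 L307R over wild type, against the mean log2 signal of both arrays for 11408 measured genes (grey) and the 7 measured cofactor genes (orange), each at its brightest probe set; dashed lines mark 2-fold. Meis2 lies at -0.95, near the lower 2-fold line, and the other 6 genes lie between -0.30 and 0.58.

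Meis2, a retinoic acid-responsive member of the Meis family, gave values that split between its probe sets. At its brightest probe set, 1457632_s_at, the wild-type signal was 2539.8 and the Phc2 L307R signal 1318, 1.93-fold lower (log2 ratio -0.95). At 1447861_x_at it was 507.3 and 202.4, 2.51-fold lower (-1.33). This was the only 1 of the 17 measured probe sets of these genes to differ 2-fold, against 1.55% of 23615 measured probe sets on the array, 0.991% in the lower direction. The remaining Meis2 probe sets went the other way. At 1417129_a_at the wild-type culture had 1311.7 and the Phc2 L307R culture 1592.9, a log2 ratio of 0.28. At 1440091_at it was 279.1 and 320.3, a log2 ratio of 0.20. So the direction given for Meis2 depends on the probe set, and the mean over all 4 was -0.45.

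The distance between the highest and the lowest Meis2 log2 ratio was 1.61. Among 585 genes with exactly 4 measured probe sets, 12 (2.05%) had a range at least as wide, and the median range was 0.56. The SD between probe sets of 1 gene was 0.81 for Meis2 and 0.32 over the 5460 genes that had 2 or more measured probe sets. A gene with 1 probe set at least 1.5-fold lower and another above 0 was less rare, since 82 of the 585 genes (14.0%) were of this kind. RefSeq lists 15 curated (NM) transcripts for Meis2 and 1 to 4 for each of the other 7 genes. Which transcripts each probe set binds was not examined.

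The split also followed the annotation of the probe sets. The lower pair, at a mean log2 ratio of -1.14, has no source accession in the platform table, while the pair at a mean of 0.24 has one. Over the array, 2.07% of 1840 measured probe sets of 1 gene without an accession were at least 2-fold lower in Phc2 L307R, and 0.878% of 18897 with one. Of 1327 measured probe sets with the suffix _x_at, 5.12% were at least 2-fold lower, and of 1449 with the suffix _s_at 1.10%. Both suffixes mark probe sets with probes that can bind several transcripts. The part of these features in the Meis2 values was not tested.

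**Figure D3:**
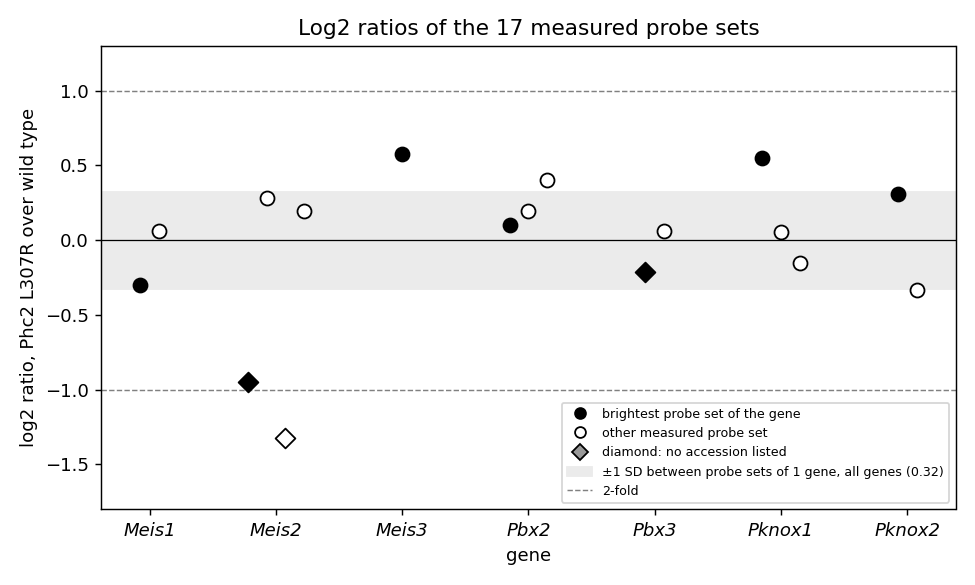
Log2 ratio, Phc2 L307R over wild type, of the 17 measured probe sets by gene. Filled symbols are the brightest probe set of a gene, diamonds have no accession listed, the grey band is 1 SD between probe sets of 1 gene over all genes (0.32) on each side of 0, and dashed lines mark 2-fold. Pbx2 is the only gene with several measured probe sets that all lie on the same side of 0, and the Meis2 probe sets form separate pairs.

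Meis1, the closest relative of Meis2 and known from blood stem cells and limb, differed less. At 1450992_a_at it had 683.8 on the wild-type array and 556.8 on the Phc2 L307R array, a log2 ratio of -0.30. At 1443260_at the arrays gave 332.1 and 346.6 (log2 ratio 0.06). A further probe set, 1459423_at, lay below the floor on both arrays (69 and 15) and gave no ratio. The measured pair of values differed by 0.36, and 36.4% of 3136 genes with exactly 2 measured probe sets differed by at least as much.

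Meis3, the Meis family member studied mainly in hindbrain and endocrine pancreas, had the highest log2 ratio. At 1423984_a_at the wild-type array gave 246.4 and the Phc2 L307R array 367.8, 1.49-fold higher (0.58). It was the only probe set of this gene, so no second value checks it. Over all 23615 measured probe sets, 9.11% had a ratio at least as large in either direction. Over the 4389 genes with a mean signal from 250 to 1000, the band that holds Meis3, the SD of the log2 ratio was 0.32.

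Among the Pbx genes, which supply the direct Hox partner, Pbx2 had all its probe sets on the same side of 0. At 1418893_at it went from 924.1 (wild type) to 993.2 (Phc2 L307R), at 1418894_s_at from 230.8 to 263.7, and at 1449261_at from 170.1 to 224.9. The log2 ratios were 0.10, 0.19 and 0.40, with the largest at the dimmest probe set. Their range of 0.30 was exceeded or equalled by 70.2% of 1374 genes with exactly 3 measured probe sets. Each of the 3 lay below 1.5-fold.

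Pbx3, a partner of Hox proteins in the nervous system and limb, went from 879.1 (wild type) to 759.6 (Phc2 L307R) at 1447640_s_at, a log2 ratio of -0.21. At 1421193_a_at it went from 675.2 to 705.2 (0.06). The values lay on either side of 0, and both were smaller than the SD of 0.32 between probe sets. Pbx4, known mainly from testis, lay below the floor on both arrays at each probe set, with 70 (wild type) and 31.8 (Phc2 L307R) at 1449916_at and 33.9 and 6.7 at 1454912_at. No fold is given for it.

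The Pknox genes, also called Prep, encode partners of Pbx that most tissues express in the case of Pknox1. At its brightest probe set, 1437470_at, Pknox1 went from 549.2 (wild type) to 803.1 (Phc2 L307R), 1.46-fold higher (log2 ratio 0.55). At 1421233_at it had 515.7 and 536.8 (0.06), and at 1450172_at 468.1 and 421.3 (-0.15). The higher value thus appeared at 1 of 3 probe sets, and the mean over them was 0.15. Pknox2, a relative with a narrower expression, had 416.4 and 515.7 at 1433907_at (0.31) and 213.5 and 169.6 at 1428017_at (-0.33). These cancelled to a mean of -0.01.

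Of the 6 genes that had 2 or more measured probe sets, 1 (Pbx2) had all of them on the same side of 0. Over all 5460 such genes the share was 45.4%. It was smaller where more probe sets were compared, from 57.9% with exactly 2 to 34.3% with 3 and 24.1% with 4. Without Meis2 the pooled SD between probe sets of the other 5 genes was 0.30, beside 0.32 over all genes, and with it 0.51. With only 2 arrays, a gene of like pattern is not defined beyond a level and a ratio, so none is named. Levels of different cofactors are not ranked, since signals of different probe sets are on no common scale.

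Lists of related genes were set beside the cofactors. Of 9 other TALE homeobox genes, 7 were measured, and all 7 had log2 ratios above 0 at the brightest probe set, also under quantile normalization, loess and centring, beside 59.1% of all measured genes. Tgif2, a repressor of TGF-beta signalling, had 2 measured probe sets, which lay on both sides of 0. The median of the 7 genes was 0.29, with Irx2 at 0.42, Irx3 at 0.36, Mkx, a factor of tendon, at 0.30 and Irx1 at 0.29. Irx genes encode Iroquois patterning factors. None of the 7 differed 2-fold, and of the cofactors 4 of 7 were above 0.

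The Hox genes, the partners of these cofactors, had 28 of 39 listed genes measured, 12 above 0 and 16 below at the brightest probe set, with a median of -0.05. Hoxa3, Hoxa9, Hoxb3, Hoxb4, Hoxc6 and Hoxd8 had measured probe sets on both sides of 0. Those of Hoxa5, Hoxc5 and Hoxd13 lay on the same side. Over all measured genes 59.1% lay above 0. Only Hoxa7 differed 2-fold, against 1.11% of all measured genes. Its log2 ratio was at least 1.04, from a wild-type signal below the floor (83.6) to 194.8.

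Of 19 listed genes of retinoic acid supply, breakdown and reception, 12 were measured, 10 above 0 and 2 below (59.1% of all measured genes lay above 0), with a median of 0.29 and none past 2-fold. Crabp2, which carries retinoic acid to its receptors, went from 1152.6 in wild type to 1936.2 in Phc2 L307R (0.75). The receptor gene Rarb, itself induced by retinoic acid, was at 0.56 and Rarg at 0.38, while Rxrb, a receptor partner, was at -0.65. On both arrays 5 genes of the list lay below the floor: Aldh1a1, Cyp26a1, Rxrg, Stra6 and Stra8. Rarb and Meis2 are both known to respond to retinoic acid, and of the Meis2 probe sets a pair lay above 0 and a pair below. The part of retinoic acid in these values was not tested.

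Other proteins known to bind Pbx or Meis gave 8 measured of 14, at a median of 0.17. Of the 8, 7 lay above 0 (6 under quantile normalization, loess or centring), beside 59.1% of all measured genes. Pbxip1, a Pbx-binding protein that keeps Pbx from Hox complexes, was at 0.32. Crtc1, a CREB coactivator, was at 0.47, its relative Crtc2 at -0.56, and the muscle regulator Myod1 at 0.29. The 2 measured probe sets of Crtc2 lay on both sides of 0. Limb bud patterning genes had 19 measured of 24, 14 above 0 (13 with centring) and 5 below, beside 59.1% of all measured genes above 0, and a median of 0.23. The limb factors Tbx5, Tbx15 and Pitx1 were at 0.61, 0.52 and 0.50 and the signal Bmp4 at 0.43, while the lowest were Msx2 at -0.37 and Emx2 at -0.21, homeobox factors named outside the rule after their values were seen. None in either list differed 2-fold. Of the limb genes, Gli3, Prrx1 and Tbx4 had measured probe sets on both sides of 0.

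**Figure D4:**
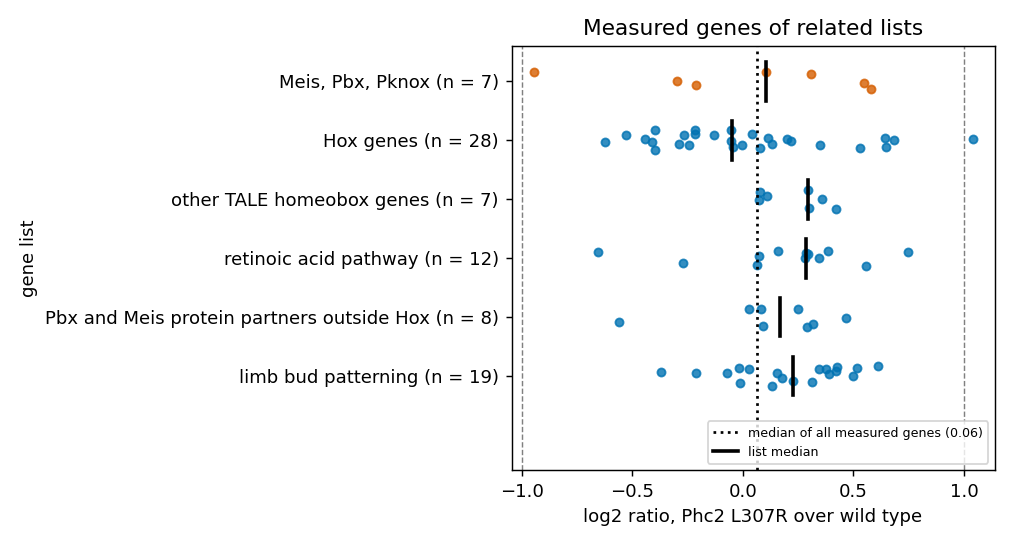
Log2 ratios, Phc2 L307R over wild type, of the measured cofactor genes (orange) and of the measured genes of 5 related lists (blue), each at its brightest probe set, with list medians as bars and the median of all measured genes (0.06) as a dotted line; dashed lines mark 2-fold. The 7 other TALE genes lie above 0 at their brightest probe set, while the cofactors spread from -0.95 to 0.58.

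Markers of the labelled cell type were present: all 10 fibroblast markers lay above the floor on both arrays and summed to 125847 on the wild-type and 168509 on the Phc2 L307R array. Of these, 8 had log2 ratios above 0 and 2 below, with a median of 0.42, Dcn at 0.88 and Col3a1 at 0.56. The lower ones, Pdgfrb at -0.34 and Pdgfra at -0.12, are named after their values were seen. Each of these has measured probe sets on both sides of 0, as do Vim and Fn1 among the 8 above 0. Among measured markers of other cell types, 5 of 11 chondrocyte markers and 1 of 3 osteoblast markers (Ibsp) were at least 2-fold higher. At least 2-fold lower were 1 of 3 endothelial markers (Emcn) and 1 of 7 neuron and neural progenitor markers (Map2). The share over all measured genes, in either direction, was 1.11%. Emcn had 210.8 on the wild-type array and 94.9 on the Phc2 L307R array, close to the floor of 94.8. None of the skeletal muscle, macrophage and epithelial markers differed 2-fold. Of 12 chondrocyte markers 11 were measured, 10 above 0. The signals of all 12 summed to 6371 on the wild-type and 9758 on the Phc2 L307R array. Cnmd was at 1.69 or more and Matn1 at 1.62 or more, and Col9a2 lay below the floor on both arrays. The 1 measured marker below 0 was Sox9, at -0.29, with 2 probe sets in the same direction. The osteoblast sum, over 5 markers with a probe set, went from 494.1 to 1356, with Ibsp at 2.12 and Alpl at 0.72, and Dmp1 and Phex below the floor on both arrays. The 10 neuron and neural progenitor markers summed to 3148 and 3435, with Map2 at -1.31 and Dcx at 0.82 or more, and Elavl3, Nefl and Pax6 below the floor on both. Of the 7 measured neuron and neural progenitor markers 3 lay above 0 and 4 below, with a median of -0.02. Skeletal muscle markers summed to 4114 and 4546, with Des at 0.35, Myod1 at 0.29, and Myf5, Pax7 and Ckm below the floor on both. Epithelial markers summed to 1205 and 940.9, with Krt18 at -0.48, Krt5 at -0.31, and Epcam, Cdh1 and Krt14 below the floor on both. The remaining measured epithelial marker, Krt8, was at 0.06, with probe sets on both sides of 0. Endothelial markers summed to 682.9 and 638.3, with Emcn at -1.15 and Tek at 0.44 or more. Of these, Pecam1, Cdh5, Tie1 and Esam lay below the floor on both. Macrophage markers summed to 617.2 and 853.7, with Csf1r and Lyz2 at 0.57, and C1qa, Ptprc, Tyrobp and Fcer1g below the floor on both. Of the 4 measured macrophage markers 3 lay above 0 and 1 below, Cd68 at -0.11 (102.1 and 94.9). The part of cell makeup in the cofactor values was not tested.

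**Figure D5:**
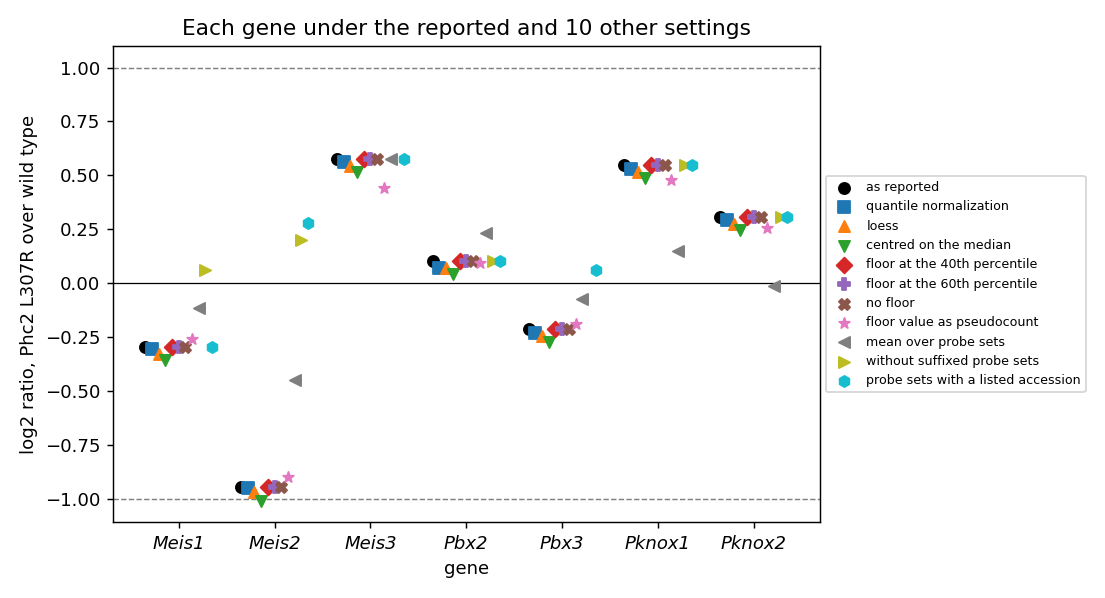
Log2 ratio of each measured cofactor gene as reported (black) and under 10 other settings of scaling, floor and choice of probe set (coloured symbols), with dashed lines at 2-fold. Each value moved by less than 0.32 with scaling and floor, while Meis2 ran from -1.01 with centring to 0.28 with only probe sets that have a listed accession.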

How the data were processed

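The table the authors deposited holds intensity values on a linear scale, 45101 probe sets by 2 arrays. Per the submitters' processing notes, Affymetrix Expression Console and MAS5 were used (no versions listed). How arrays were scaled was not given in the sources used here, but the mean signal of each array, after trimming 2% at either end, was 500.0. No presence calls were used. Removing 64 control probe sets left 45037. Symbols came from the platform annotation (34945 probe sets with 1 symbol, 932 with several, 9160 with none listed) and were updated through a RefSeq table of GRCm38.p6 for 34741; none of the names of the 8 genes changed. Signals below the floor were raised to it, and a ratio that touches it is a bound. For each gene the brightest probe set, by mean log2 signal, was used. Differences are log2 ratios, counted by size with no test.

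All probe sets of the 8 genes are named. Of each related list, up to 4 measured genes of largest absolute log2 ratio are named, and of each marker list the 2 largest, with markers below the floor. Some genes that went the other way, lay below the floor or had probe sets on both sides of 0 are named outside this rule, after their values were seen. The genes and lists were chosen with earlier results of these data known. The alternatives were quantile normalization, loess (span 0.4, 3 iterations), centring on the median, a floor at the 40th or the 60th percentile, no floor, the floor as a pseudocount, the mean over probe sets, leaving out the suffixes _x_at, _s_at and _a_at, and thresholds of 1.5-fold and 3-fold. Probe sets with a listed accession were tried as an alternative chosen after seeing the data. The calculations (Python 3.11.15, pandas 2.3.3, statsmodels 0.14.6) were tested on simulated arrays with planted differences. Of 50 genes planted at 2.5-fold, 88% were found at least 2-fold different, and of 50 at 4-fold, 100%. All probe sets of a gene were planted alike and none below 2.5-fold. Smaller differences and disagreement between probe sets were thus not tested.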

Additional observations from a re-analysis of the deposited data

How the results depend on the processing

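The count of the genes at least 2-fold different was 0 of 7 measured as reported, beside 1.11% of all measured genes. It was 1 of 7 with centring on the median (Meis2, at -1.01), where 1.07% of all measured genes passed. Without a floor it was 1 of 8 (Pbx4, from signals of 70 and 31.8), where 15.0% of all genes passed. At the 1.5-fold threshold it was 1 of 7 (Meis2), where 7.44% passed. It was 0 under the other 9 settings, where 0.12% (3-fold threshold) to 1.66% (floor at the 40th percentile) of all measured genes passed. Of these settings, the one without suffixed probe sets measured 5 genes. The count of genes whose measured probe sets all lay on the same side of 0 was 1 of 6 as reported and 2 of 6 with centring on the median. Without a floor it was 2 of 7, where Pbx4 also counted though below the floor on both arrays. With only probe sets that have a listed accession, an alternative chosen after seeing the data, it was 2 of 5. Without suffixed probe sets it was 1 of 3. The share of genes with such agreement over all genes was not computed for these alternatives. The median of the genes ran from -0.05 (with the floor at the 40th percentile or without one) to 0.28 (listed accessions). Of 68 single values, 5 moved by more than the SD of 0.32 between probe sets: Meis2 to -0.45 and Pknox1 to 0.15 with the mean over probe sets, Meis1 to 0.06 and Meis2 to 0.20 without suffixed probe sets, and Meis2 to 0.28 with listed accessions. In these, another probe set or a mean stands for the gene. Pbx3 was at 0.06 with listed accessions and Pknox2 at -0.01 with the mean over probe sets, so both changed sign too. Without suffixed probe sets Meis3 and Pbx3 had none left. Meis3, Pbx2 and Pknox1 kept their sign under each alternative that gave them a value. No paired analysis was possible because there is 1 array per genotype, and no replicate could be left out.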
